A study of Mus musculus with 4 samples.

Results

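Among the nuclei of the mouse basolateral amygdala (BLA), 267 carried the genes Otof, Trhr, Col12a1 and Glis3 at a summed count of at least 4 UMIs (unique molecular identifiers, each counting 1 captured RNA molecule). They were chosen as barcodes with at least 500 genes, under 5% mitochondrial UMIs and under 25000 UMIs that held at least 1 UMI of Slc17a7, the vesicular glutamate transporter VGLUT1. The choice also limited Gad1+Gad2 to 1 UMI, Slc1a3+Gja1 to 2, Rspo2 to 1, Rorb to 3 and Htr7+Col26a1+Piezo2 to 2. The 267 members stood among 8491 Slc17a7 nuclei, 26106 kept nuclei and 27313 barcodes in all. DISC1-N replicates 1 and 2 held 58 and 75 of them, and WT replicates 1 and 2 held 73 and 61. Every one of these genes was measured in the nuclei it selected, so their levels in the members describe the choice and are no result.

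Nuclei of DISC1-N mice were compared with nuclei of wild-type (WT) mice by droplet RNA sequencing, to ask how the cells of this region differ by genotype. Both groups were of the strain C57BL/6J, both had received tamoxifen 6 h before the tissue was taken, and bilateral BLA of 5 mice was pooled for each group. The genotype is written DISC1, DISC-N or DISC1-N in different labels, and the labels give neither the age of the mice nor what drives the modified Disc1. Each genotype had 2 libraries, and nothing says that they came from separate mice, so a p-value may reflect technical variation alone.

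Excitatory neurons of the BLA are glutamatergic projection neurons that assign emotional value to sensory cues. They fall into molecular types that differ in position and in target. Otof encodes otoferlin, a calcium sensor known for vesicle release at the ribbon synapses of hair cells, and Trhr the receptor for thyrotropin-releasing hormone. Col12a1 encodes a fibril-associated collagen of the extracellular matrix, and Glis3 a zinc-finger transcription factor. Rfx3, a winged-helix transcription factor known for control of cilium genes, was listed with these markers but had no part in the choice.

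The 4 libraries held between 37840301 and 48439711 UMIs each. Members were deeper than other Slc17a7 nuclei, with medians of 11562.5 and 9662 UMIs in DISC1-N and 10801 and 8853 in WT, against 6639 to 7954 in the other Slc17a7 nuclei of the same libraries. Between 5 and 21 barcodes were shared by any pair of libraries, 1 of them a member in DISC1-N replicate 1 and in WT replicate 2. According to the file headers, Cell Ranger was at version 7.0.0 for replicate 1 and at 6.0.2 for replicate 2 of either genotype, so the replicate number stands for a processing batch that both genotypes share. Mitochondrial transcripts differed with it: they summed to 702 and 240 CPM (counts scaled to a total of 1e6 UMIs in the summed profile) in the members of DISC1-N replicates 1 and 2, against 1289 and 199 CPM in WT replicates 1 and 2.

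Few members carried the whole set of markers. All 4 genes were detected in 30 members, 3 of them in 105, 2 in 91 and a single one in 41, and 30 of the 41 held Otof alone. Otof was detected in 86.9% of the members, Col12a1 in 59.6%, Trhr in 58.4% and Glis3 in 41.6%, at a median depth of 9802 UMIs. In Slc17a7-negative nuclei with at least 2 Mog+Mag UMIs, which are oligodendrocyte-like and should lack these genes, the shares were 4.47%, 1.60%, 1.38% and 4.97% at a median depth of 1642.5 UMIs. At the edge of the choice lay 104 members with exactly 4 marker UMIs and 189 nuclei with 3 that met every other limit.

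Rfx3, outside the choice, was high in the members of every library. It was listed as a marker with earlier results of these data known, so its height in the members is no independent check. Its level was 1005 and 1526 CPM in DISC1-N members and 1148 and 1299 CPM in WT members. The other Slc17a7 nuclei of the same libraries had 226 and 288 CPM in DISC1-N and 269 and 284 CPM in WT. The ranges did not overlap, and the 4.65-fold difference of the means (log2 ratio 2.22) lay between 2.09 and 2.40 on the log2 scale in the single libraries. The gene lies on chromosome 19, from 27761721 to 28011166 on the minus strand of mm10. At least 1 UMI of Rfx3 was found in 96.6% of the members, against 65.4% of other Slc17a7 nuclei and 32.6% of the oligodendrocyte-like nuclei.

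**Figure D1:**
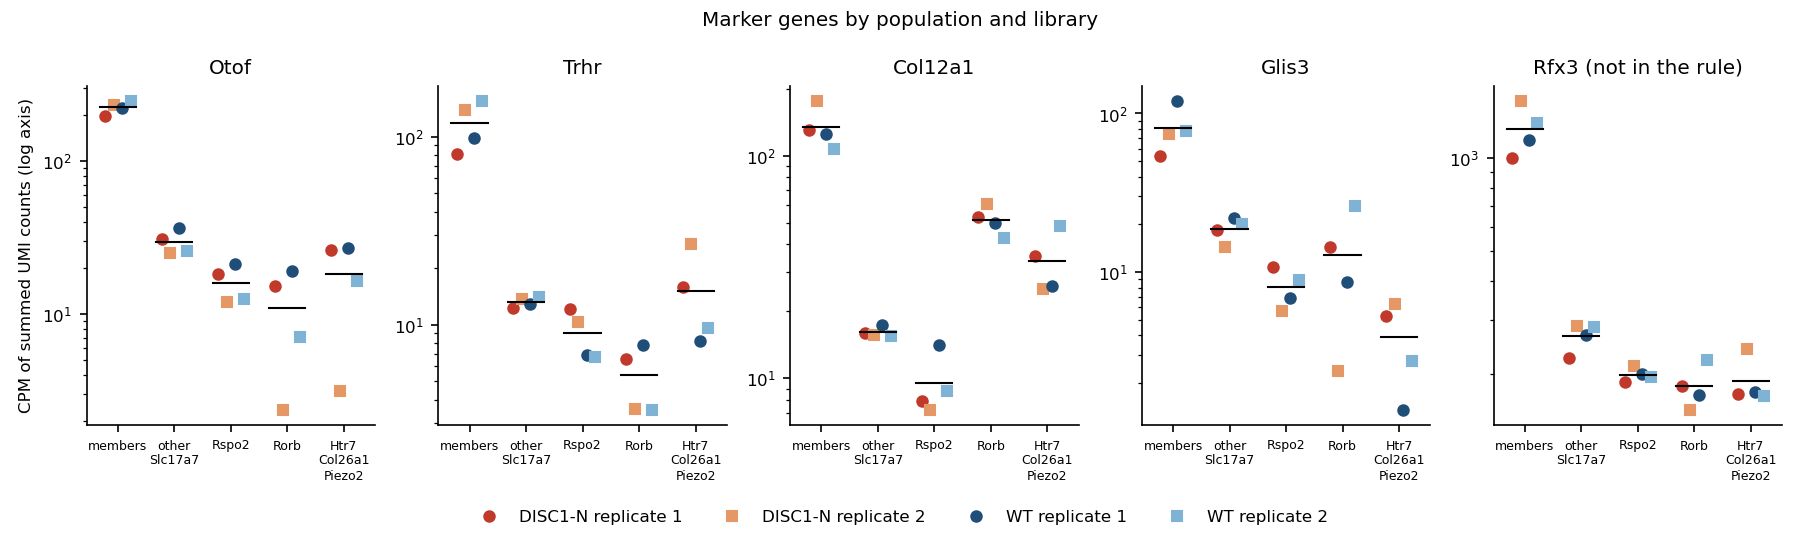
Level of Otof, Trhr, Col12a1, Glis3 and Rfx3 (CPM of counts summed per library, log axis) in the members, in other Slc17a7 nuclei and in nuclei chosen by Rspo2, by Rorb or by Htr7, Col26a1 and Piezo2. Each point is 1 of the 4 libraries and the black line their mean. Rfx3, which was not used to choose nuclei, averaged 1244 CPM in the members and between 183 and 267 CPM in the other populations.

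Summed over all libraries, the level of Rfx3 was higher at each higher marker count of a nucleus, on both sides of the limit of 4. It was 197 CPM in Slc17a7 nuclei within the other limits that had no marker UMI, 351 CPM at 1, 582 CPM at 2 and 781 CPM at 3. It was 925 CPM at 4, just inside the limit, 1114 CPM at 5, 1280 CPM at 6 to 7 and 1814 CPM at 8 to 15 marker UMIs. The single libraries did not all follow these steps. At 4 marker UMIs against 3, Rfx3 was at 884 against 520 CPM in DISC1-N replicate 1 and at 927 against 677 CPM in WT replicate 1, but at 985 against 1065 CPM in DISC1-N replicate 2 and at 888 against 937 CPM in WT replicate 2. In DISC1-N replicate 1 it was at 706 CPM at 5 marker UMIs, below its level at 4. Over all libraries Cdh13 and Dab1, also outside the choice, stood at 158 and 437 CPM with no marker UMI, at 506 and 1188 CPM with 3, at 679 and 1214 CPM with 4 and at 850 and 1903 CPM with 8 to 15. Median depth was also higher with more marker UMIs, with 5015.5 UMIs at no marker UMI, 7737 at 3, 9103 at 4 and 11849 at 8 to 15, and its part in the steps was not tested. For all 3 genes the nuclei just outside the limit already stood well above those with no marker UMI. After its step from 3 to 4, Cdh13 stayed at 659 CPM with 5 and at 682 CPM with 6 to 7 marker UMIs. Whether the step at the limit differs from the others was not tested.

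**Figure D2:**
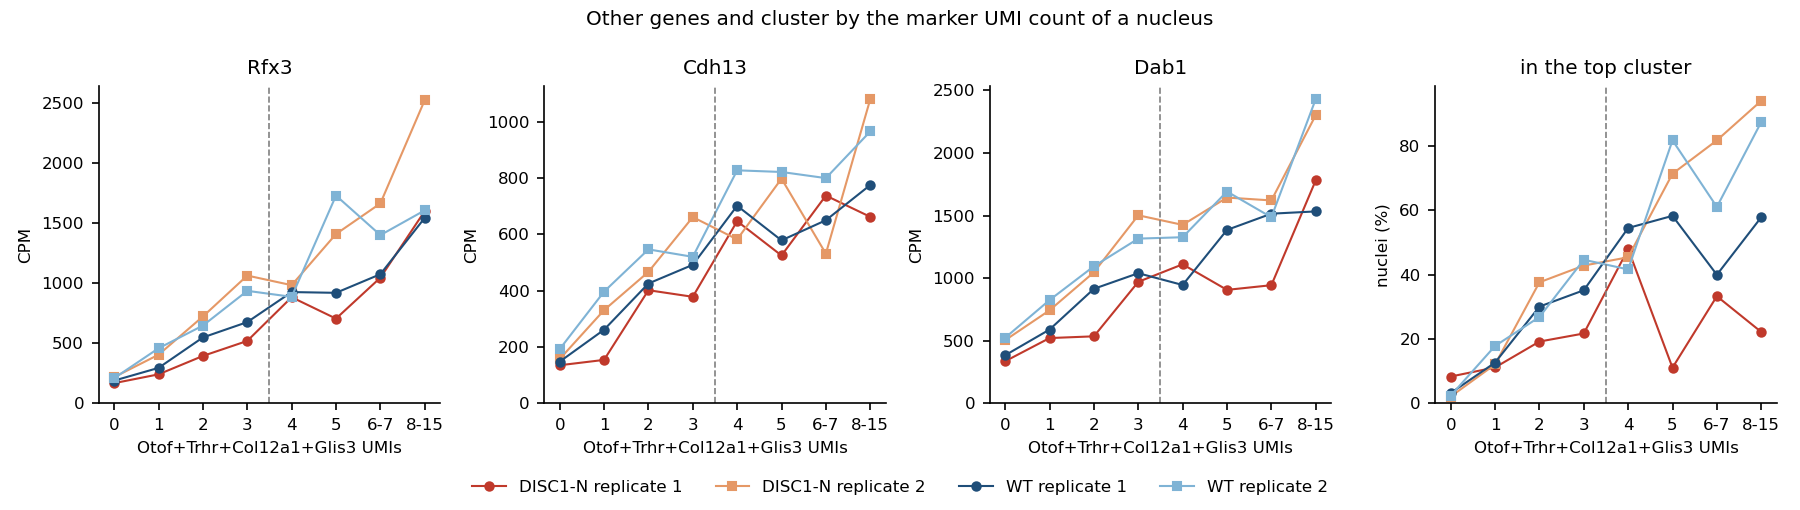
Level of Rfx3, Cdh13 and Dab1 (CPM) and the percentage of nuclei in the top cluster, by the summed Otof, Trhr, Col12a1 and Glis3 UMIs of a nucleus, with 1 line for each library. The dashed line marks the limit between 3 and 4 UMIs. Rfx3 stood at 781 CPM just outside the limit and at 925 CPM just inside it over all libraries.

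The leading genes of the members, beside the 4 that chose them, included genes of adhesion, signalling and membrane traffic. Of 7332 genes with at least 20 CPM in either population, 79 (1.08%) were at least 2-fold higher in the members and higher in all 4 libraries, and 192 (2.62%) were at least 2-fold lower and lower in all 4. Nothing is read from these shares, since the members were chosen by genes of the same nuclei. The values that follow are descriptions with no test. Other Slc17a7 nuclei were not held to the Gad and glial limits, which 6625 of all 8491 Slc17a7 nuclei met. Inhibitory or glial RNA may thus enter these ratios, above all for genes lower in the members, and its part was not tested. Other Slc17a7 nuclei also include 1618 nuclei within those limits that had at least 2 Rspo2 UMIs, which the choice left out. Their part in the genes lower in the members was not tested either.

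Adhesion and matrix genes are given first. Cdh13, the lipid-anchored T-cadherin, was at 621 and 732 CPM in DISC1-N members and 688 and 837 CPM in WT members, against 165 to 200 CPM in other Slc17a7 nuclei (chromosome 8, 118283733 to 119324921, plus strand). Cdh7, a classical cadherin, averaged 249 CPM in the members and 90.2 CPM in other Slc17a7 nuclei, and Igsf11, an immunoglobulin-domain adhesion protein of synapses, 133 and 51.3 CPM. Among matrix genes, Col23a1, a transmembrane collagen, averaged 99.4 and 31.9 CPM, Adamts18, a secreted metalloprotease, 127 and 46.1 CPM, and Fndc1, a fibronectin-domain protein, 59.7 and 14.6 CPM. Each of these 6 was higher in the members in all 4 libraries.

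Genes of signalling and of membrane traffic follow. Dab1, the adaptor that relays Reelin signals inside neurons, was at 1180 and 1698 CPM in DISC1-N members and 1348 and 1600 CPM in WT members, against 447 to 565 CPM in other Slc17a7 nuclei. Ano2, a calcium-activated chloride channel, was at 67.6 and 93.8 CPM in DISC1-N members and 63.8 and 76.3 CPM in WT members, against 13.5 to 20.7 CPM in the rest. Neither gene overlapped between the populations in any library. Plce1, a phospholipase C, averaged 110 CPM in the members and 33.0 CPM in other Slc17a7 nuclei, and Kctd8, an auxiliary subunit of GABA-B receptors, 133 and 41.2 CPM. Kitl, the ligand of the Kit receptor, averaged 180 and 69.3 CPM, and Myo5b, a myosin of recycling endosomes, 82.3 and 27.9 CPM. Nek10, Echdc2 and Vat1l complete the set, with log2 ratios of 1.88, 1.64 and 1.46.

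The genes lowest in the members, beside Rspo2, Rorb and Slc1a3 that the choice itself limited, included secreted proteins, a receptor, an adhesion protein and transcription factors. Sema3e, a secreted semaphorin that signals through plexin D1, was at 27.9 and 8.28 CPM in DISC1-N members and 18.1 and 13.9 CPM in WT members, against 81.6 to 119 CPM in other Slc17a7 nuclei. Npsr1, the receptor for neuropeptide S, was at 80.8 and 13.8 CPM in DISC1-N members and 34.9 and 62.4 CPM in WT members, against 167 to 270 CPM. Nell1, a secreted EGF-domain protein, averaged 73.0 CPM in the members and 377 CPM in other Slc17a7 nuclei, and Sdk1, an adhesion protein of synapses, 26.9 and 121 CPM. Tshz3, a transcription factor, averaged 11.4 and 55.4 CPM, and Frem1, a matrix protein, 14.5 and 68.8 CPM. Sox6, a transcription factor of many inhibitory neurons, averaged 19.0 and 85.0 CPM, but its log2 ratio of -2.10 was -0.23 between nuclei of at least 5000 UMIs under the same Gad and glial limits, while that of Rfx3 was 2.34 there.

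**Figure D3:**
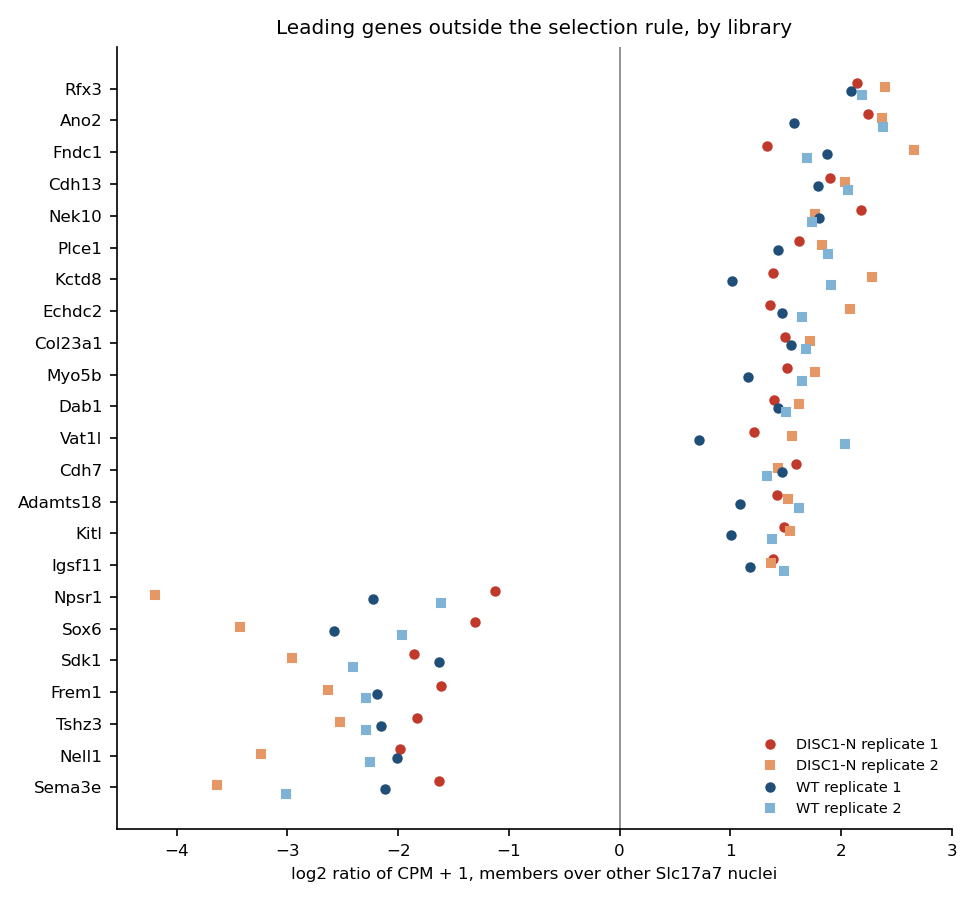
Log2 ratio of CPM + 1 in the members over other Slc17a7 nuclei for the leading genes outside the choice, with 1 point for each library. The 16 genes at the top were higher and the 7 at the bottom lower in the members of all 4 libraries, and the points of DISC1-N replicate 2 lie lowest for each of those 7.

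The promoters of Rfx3 and Ano2 are shown because both genes led in the members and Rfx3 encodes a factor that binds X-box motifs. The motif searched was GTTGCC, on both strands, in the window from 250 bases before to 50 after the gene start (RefSeq, GRCm38.p6). It was found in 4 of the 15 genes with a promoter in that table among the 20 highest, those of the choice included (Ano2, Igsf11, Plce1 and Rfx3), against 14.1% of all genes and 12.5% of all 32851 promoters. A match is a description of these letters only. The window of Rfx3 (chr19:28011117-28011416, minus strand) and that of 1 of the 3 starts of Ano2 (chr6:125710938-125711237, plus strand) are given 5′ to 3′ with the motif in capitals.
Rfx3: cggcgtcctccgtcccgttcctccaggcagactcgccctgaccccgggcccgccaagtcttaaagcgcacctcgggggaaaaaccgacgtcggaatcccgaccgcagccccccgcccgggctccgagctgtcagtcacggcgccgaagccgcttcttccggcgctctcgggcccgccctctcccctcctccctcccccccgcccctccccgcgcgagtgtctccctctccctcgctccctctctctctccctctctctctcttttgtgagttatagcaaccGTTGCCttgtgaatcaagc
Ano2: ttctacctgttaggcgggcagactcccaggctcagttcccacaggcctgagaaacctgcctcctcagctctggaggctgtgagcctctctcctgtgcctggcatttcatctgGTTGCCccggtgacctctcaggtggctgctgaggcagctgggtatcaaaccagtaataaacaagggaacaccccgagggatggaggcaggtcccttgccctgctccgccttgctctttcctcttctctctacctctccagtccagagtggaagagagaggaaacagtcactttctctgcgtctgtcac

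Other groups of excitatory nuclei under the same Gad and glial limits had these genes at lower levels. In 1618 nuclei with at least 2 Rspo2 UMIs, Rfx3 averaged 200 CPM, Cdh13 71.1 CPM and Ano2 16.6 CPM. In 383 nuclei with at least 4 Rorb UMIs the same genes averaged 183, 122 and 7.92 CPM, and in 226 nuclei with at least 3 Htr7+Col26a1+Piezo2 UMIs 190, 139 and 7.84 CPM. Sema3e averaged 17.0 CPM in the members, against 161, 31.3 and 58.5 CPM in the Rspo2, Rorb and Htr7 sets, and Npsr1 48.0 CPM, against 336, 286 and 112 CPM. Of the choosing markers, Col12a1 was shared in part, with 135 CPM in the members, 9.50 CPM in the Rspo2 set, 51.4 CPM in the Rorb set and 33.6 CPM in the Htr7 set.

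Lists of genes by role described the members further, again without a test. They were set against the same other Slc17a7 nuclei, which were not held to the Gad and glial limits. Each count is of list genes with at least 20 CPM in either population that were at least 2-fold apart in their means and in the same direction in all 4 libraries. Over all 7332 genes these were the 1.08% higher and 2.62% lower given above, and the median log2 ratio was -0.06. Of 7 excitatory markers measured, none was higher and 1 was lower: Neurod6, a transcription factor of cortical and amygdala projection neurons, was at 16.2 and 11.0 CPM in DISC1-N members and 19.3 and 20.8 CPM in WT members, against 58.5 to 64.1 CPM in other Slc17a7 nuclei. Nrgn, which encodes the calmodulin-binding protein neurogranin, averaged 167 and 205 CPM. Of 44 transcription factors, Rfx3, Dach1 and Glis3 of the choice were higher and 6 were lower, among them Tshz3, Sox6, Neurod6 and Tle4. Of 24 layer and region markers, Cdh13 and Lypd1 were higher and 8 lower, but these 8 include Rspo2 and Rorb, which the choice limited. Another of the 8 was Col5a2, a fibrillar collagen gene with 3.86 CPM in the members and 25.9 CPM in other Slc17a7 nuclei. The choice left out nuclei with more than 1 Rspo2 UMI, and their part in the low Col5a2 level was not tested.

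Receptor genes were counted by the same rule. Of 15 ionotropic glutamate receptor genes, the kainate receptor subunit Grik1 was higher and Grik3 lower. Grik1 was at 150 and 372 CPM in DISC1-N members and 241 and 262 CPM in WT members, against 82.6 to 112 CPM in other Slc17a7 nuclei. Grik3 averaged 33.7 CPM in the members and 90.0 CPM in the rest. Of 5 metabotropic receptor genes, Grm3 and Grm8 were lower, with means of 104 and 486 CPM in the members and 246 and 1008 CPM in other Slc17a7 nuclei. None of 13 GABA receptor genes was 2-fold apart in either direction. Of 19 monoamine and peptide receptor genes, Trhr of the choice and Htr1b, a serotonin receptor, were higher, and Oprk1 (the kappa opioid receptor), Htr2a and Htr4 were lower. Htr1b averaged 21.8 and 9.33 CPM and Oprk1 4.74 and 24.6 CPM.

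Ion channel and release genes came next. Of 39 potassium and HCN channel genes, 3 were lower (Kcnip1, Kcnk2 and Kcnn2) and none higher, and Kcnip2, which encodes a regulator of A-type potassium channels, averaged 78.5 CPM in the members and 41.6 CPM in other Slc17a7 nuclei. Of 34 sodium and calcium channel genes, only Ryr1, an intracellular calcium release channel, was higher, at 42.1 and 20.3 CPM. Of 33 vesicle release genes, Otof of the choice and Syn3, a synapsin, were higher and Rph3a, which encodes rabphilin, was lower. Syn3 was at 376 and 486 CPM in DISC1-N members and 403 and 466 CPM in WT members, against 175 to 214 CPM in other Slc17a7 nuclei. Of 79 adhesion and guidance genes, 4 were higher (Cdh13, Cdh7, Cntn5 and Sema5a) and 8 lower, and the lower ones included Pcdh15, at 260 and 834 CPM.

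Markers of other cell types were mostly low in the members, in part because the choice limited them. Of 10 inhibitory markers measured, 6 were at least 2-fold lower and none higher, but the list summed to 1215 and 332 CPM in DISC1-N members and 1210 and 1208 CPM in WT members, against 1659 to 2427 CPM in other Slc17a7 nuclei. Astrocyte markers summed to 395 and 262 CPM in DISC1-N and 314 and 342 CPM in WT members, and oligodendrocyte markers to 192 and 109 CPM in DISC1-N and 155 and 67.6 CPM in WT members. The defining markers Gad1 and Gad2 averaged 8.09 and 8.78 CPM. Vascular markers summed to between 1.20 and 10.3 CPM, with 3 of 8 at 0.

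Clusters made in each library without the genes of the choice gathered the members in part. The cluster that held most of them took 18 of 58 members in DISC1-N replicate 1 (31.0%) and 50 of 75 in DISC1-N replicate 2 (66.7%), against 38 of 73 in WT replicate 1 (52.1%) and 37 of 61 in WT replicate 2 (60.7%). Members made up 12.5% and 34.0% of that cluster in DISC1-N replicates 1 and 2, and 20.4% and 27.0% in WT replicates 1 and 2, against 2.90% to 3.70% of all Slc17a7 nuclei. With 20 components in place of 30, the top cluster held 25.9% and 33.3% of the members in DISC1-N replicates 1 and 2, against 68.5% and 60.7% in WT replicates 1 and 2, and a further 24 members of DISC1-N replicate 2 lay in its next cluster. The share of DISC1-N replicate 2 thus depends on this setting, and the results on top-cluster members rest on 30 components. Top clusters were not matched between libraries, so whether they hold the same kind of nuclei was not tested. The members of a library lay in 8 to 12 clusters, so the name is used here only for nuclei that meet the choice. DISC1-N replicate 1 had the smallest share in either setting, and with 30 components its next cluster held 13 more members, with Rfx3 at 1633 CPM. Rfx3 was at 1139 and 2009 CPM in the top-cluster members of DISC1-N and 1547 and 1647 CPM in those of WT, and outside it at 949 and 622 CPM in DISC1-N and 804 and 730 CPM in WT.

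**Figure D4:**
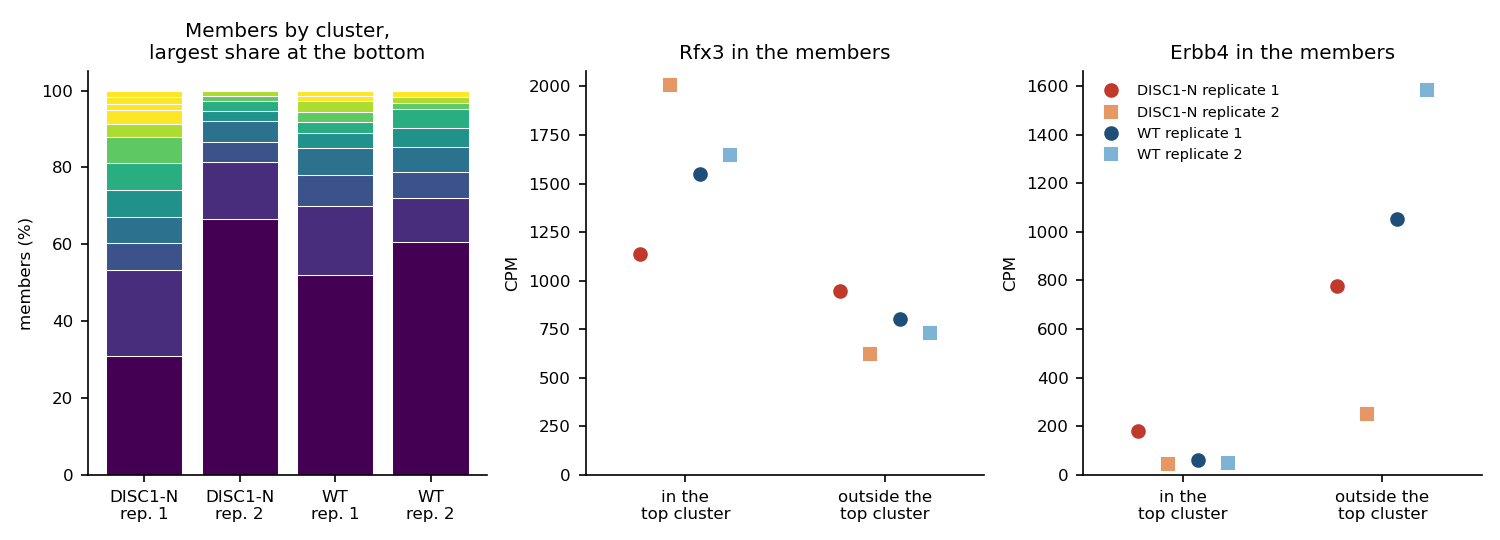
Left, the percentage of members in each cluster, for clusters made without the genes of the choice, with the largest at the bottom of each bar. Middle and right, Rfx3 and Erbb4 (CPM) in the members in and outside the top cluster, with 1 point for each library. The bottom segment is 31.0% of the members in DISC1-N replicate 1 and 52.1% to 66.7% in the other libraries.

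Some of the members outside the top cluster carried genes known from inhibitory neurons. A summed count of at least 10 UMIs of Erbb4 (the neuregulin receptor), Foxp2 and Meis2 was found in 45 of the 267 members. Foxp2 and Meis2 are transcription factors expressed in the intercalated GABAergic neurons of the amygdala. The count is a sum, so a nucleus could reach it by Erbb4 alone. There were 15 and 3 such members in DISC1-N replicates 1 and 2, against 13 and 14 in WT replicates 1 and 2, and DISC1-N replicate 2 was the low one. They carried 84.9% of the members' UMIs of these genes, and 2 of the 45 lay in a top cluster. Erbb4 was at 180 and 44.4 CPM in the top-cluster members of DISC1-N and 59.8 and 47.5 CPM in those of WT, and in the members outside the top cluster at 778 and 250 CPM in DISC1-N and 1051 and 1583 CPM in WT. This limit of 10 UMIs was set after the values were seen.

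The share of members among all Slc17a7 nuclei overlapped between the genotypes, while the share among those within the Gad and glial limits did not. It was 2.97% and 3.70% in DISC1-N replicates 1 and 2, against 2.90% and 3.06% in WT replicates 1 and 2, or 3.33% ± 0.516 in DISC1-N and 2.98% ± 0.109 in WT (SD, n = 2 each). DISC1-N replicate 1 lay between the WT libraries. Within replicate numbers, the share was higher in DISC1-N by 0.0672 percentage points in replicate 1 and by 0.644 in replicate 2. Exact permutation of the libraries, two-sided, gave p = 0.667 without regard to the replicate number, and the smallest p that 2 against 2 libraries allow is 0.33. With every nucleus thinned to 5000 UMIs and shallower nuclei left out, the share was 0.832% and 2.35% in DISC1-N and 1.94% and 1.21% in WT, after 565 and 541 DISC1-N and 925 and 632 WT nuclei were left out. With at least 6 marker UMIs it was 0.768% and 1.38% in DISC1-N and 1.55% and 1.30% in WT. Fewer cells of a type and less RNA per nucleus cannot be told apart in a share that rests on a UMI count.

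Within the members, few genes or none were called between DISC1-N and WT, depending on the fit. edgeR's quasi-likelihood test on counts summed per library called 0 of 8421 genes (0.0%) at a Benjamini-Hochberg adjusted p under 0.05, with 119 genes at an unadjusted p under 0.05, and DESeq2 called 0 genes, with 15 at an unadjusted p under 0.05. With the replicate number as a block, which leaves 1 residual degree of freedom among libraries for each gene before pooling over genes, edgeR called 9 (0.107%), 4 higher and 5 lower, and DESeq2 called 0. In the edgeR fit with the block, 377 of 8421 genes had an unadjusted p under 0.05. The block lowered the biological coefficient of variation to 0.0995, from 0.174 without it. Each gene named next has an adjusted p of 1.00 without the block.

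Pbld1, which encodes a phenazine biosynthesis-like domain protein, was lower in the DISC1-N members of both replicate numbers. It was at 20.6 and 13.8 CPM in DISC1-N members, against 59.0 and 45.1 CPM in WT members, from 14, 10, 49 and 26 UMIs (chromosome 10, 63060162 to 63077962). In DISC1-N 8 and 5 of these UMIs came from 1 nucleus of the library, and in WT 16 and 11. The groups did not overlap, and the log2 fold change with the block was -1.58 ± 0.34 (SE), with an edgeR adjusted p of 0.0226. In other Slc17a7 nuclei Pbld1 was at 82.2 and 51.1 CPM in DISC1-N and 38.9 and 64.4 CPM in WT, so there the direction differed between the replicate numbers. How reads shared with its paralog Pbld2 were counted is not given in the sources used here.

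Etl4, the mouse sickle tail gene, rose with the block. Its level was 633 and 537 CPM in DISC1-N members, against 306 and 420 CPM in WT members, with no overlap (log2 fold change with the block 0.71 ± 0.14 SE, edgeR adjusted p = 0.0140). In members outside the top cluster it was at 637 and 1121 CPM in DISC1-N and 327 and 803 CPM in WT. Prkch, which encodes protein kinase C eta, was at 27.9 and 42.8 CPM in DISC1-N members and 7.22 and 13.9 CPM in WT members, but did not pass the test with the block (edgeR adjusted p = 0.0909).

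Sox2ot, Chst9 and Erbb4 fell with the block. The 45 members with at least 10 summed Erbb4, Foxp2 and Meis2 UMIs were fewer in DISC1-N in replicate 2 only. They numbered 15 in DISC1-N and 13 in WT in replicate 1, and 3 and 14 in replicate 2. Their part in these 3 falls was not tested. Sox2ot, a long non-coding RNA whose gene overlaps Sox2 (strand use in the counting is not given in the sources used here), was at 159 and 22.1 CPM in DISC1-N members and 185 and 279 CPM in WT members (log2 fold change -1.45 ± 0.27 SE, edgeR adjusted p = 0.00461). Chst9, an enzyme that adds sulphate to N-acetylgalactosamine, was at 42.6 and 31.7 CPM in DISC1-N members and 89.1 and 81.5 CPM in WT members (-1.19 ± 0.26 SE, edgeR adjusted p = 0.0226). Erbb4, named although it fails the rule on direction, was at 602 and 116 CPM in DISC1-N members and 592 and 631 CPM in WT members (-1.02 ± 0.21 SE, edgeR adjusted p = 0.0143), so that only DISC1-N replicate 2 was low.

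Values without those 45 members describe where the UMIs lay. For Erbb4 the loss follows from how the 45 were chosen, and it is no test. Sox2ot was then at 27.6 and 8.67 CPM in DISC1-N members and 23.9 and 25.9 CPM in WT members, Chst9 at 31.6 and 33.2 CPM in DISC1-N and 47.9 and 36.6 CPM in WT, and Erbb4 at 80.9 and 43.3 CPM in DISC1-N and 70.3 and 75.4 CPM in WT. Their edgeR adjusted p with the block was 0.9885, 0.987 and 0.9885, although Chst9 still did not overlap between genotypes. Pbld1 was at 27.6 and 14.4 CPM in DISC1-N and 65.8 and 56.0 CPM in WT (adjusted p = 0.0216), and Etl4 at 647 and 543 CPM in DISC1-N and 254 and 381 CPM in WT (adjusted p = 8.91e-06). In the top-cluster members alone, neither passed, with adjusted p of 0.0554 and 0.461. Etl4 there was at 624 and 224 CPM in DISC1-N and 281 and 185 CPM in WT. Top clusters were not matched between libraries, and in the next cluster of DISC1-N replicate 1 Etl4 was at 333 CPM in the members.

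**Figure D5:**
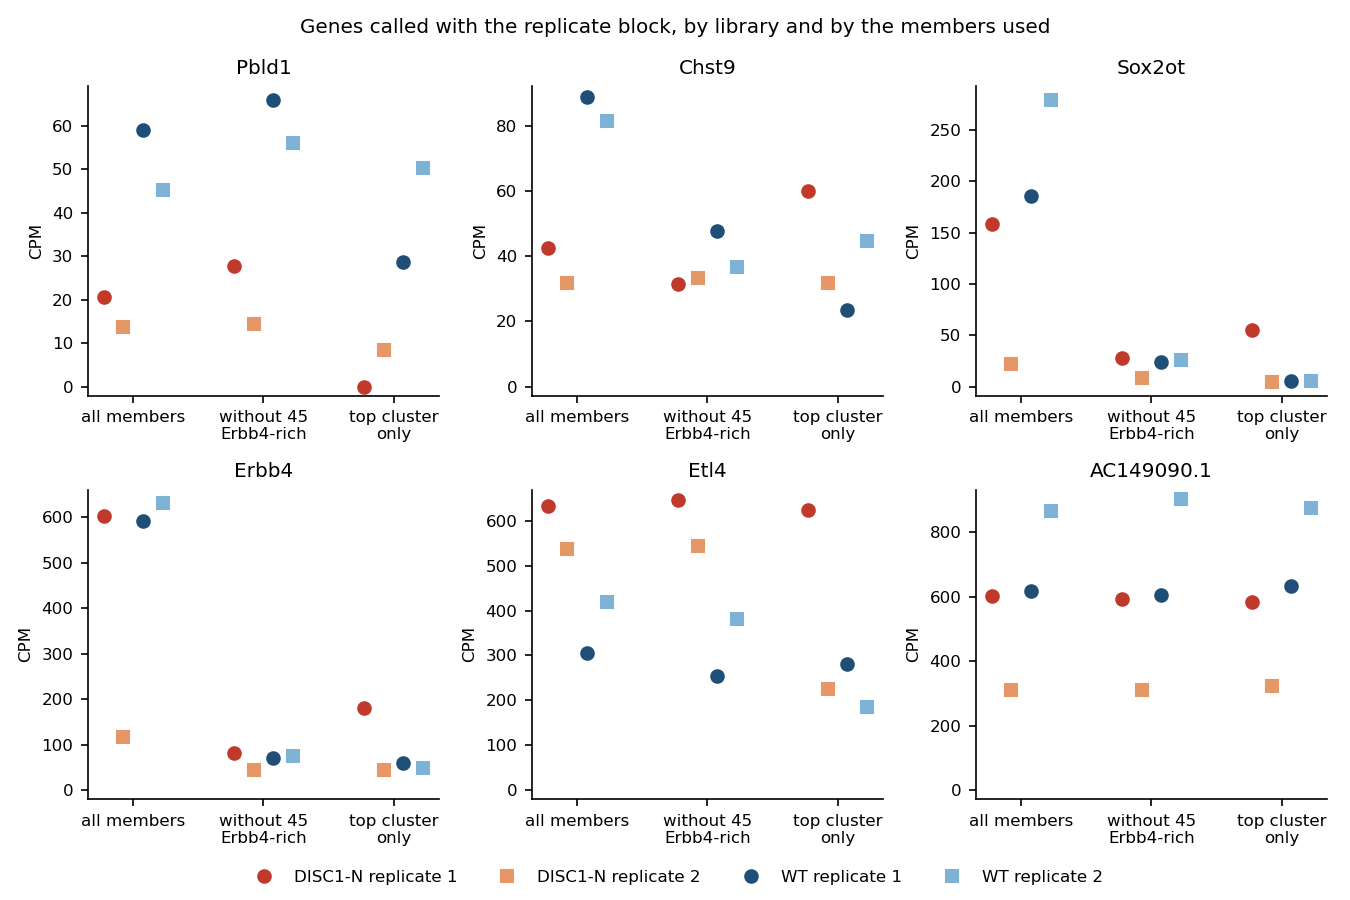
Level of 6 genes called with the replicate block (CPM, 1 point for each library). Values are over all members, without the 45 with at least 10 summed Erbb4, Foxp2 and Meis2 UMIs, and over the members of the top cluster. Without the 45 members the genotypes overlap in Sox2ot and Erbb4 but not in Pbld1, Etl4 or Chst9, and among top-cluster members Etl4 and Chst9 overlap too.

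The remaining calls with the block were of gene models. AC149090.1 was at 602 and 309 CPM in DISC1-N members and 619 and 867 CPM in WT members (log2 fold change -0.73 ± 0.16 SE, edgeR adjusted p = 0.0292), with other Slc17a7 nuclei at 594 and 352 CPM in DISC1-N and 637 and 853 CPM in WT. The others are named although they lie outside the rule. Gm47283 was higher, at 758 and 1175 CPM in DISC1-N members and 595 and 706 CPM in WT members. AC150683.1 was at 27.9 and 24.8 CPM in DISC1-N and 3.61 and 1.73 CPM in WT members, from 41 UMIs of which 12 came from 1 nucleus, and Gm48530 at 39.7 and 16.6 CPM in DISC1-N and 3.61 and 0.00 CPM in WT members, from 42 UMIs.

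A direct test asked whether the genotype difference in the members differed from that in other Slc17a7 nuclei. In an edgeR fit over both populations with the library as a block, 7 of 16626 genes (0.0421%) passed, 4 lower and 3 higher, with 613 genes at an unadjusted p under 0.05. Pbld1 was among them, with a difference of -2.09 ± 0.33 (SE, log2) and an adjusted p of 1.94e-06, as were Sox2ot (-1.25 ± 0.20 SE), Chst9 (-1.16 ± 0.27 SE) and Erbb4 (-0.88 ± 0.16 SE). Among the higher ones, 95 of 99 Spag16 UMIs and 22 of 66 Gm32036 UMIs came from 1 nucleus each. Etl4 did not pass (0.56 ± 0.16 SE, adjusted p = 0.336). Without the 45 members, which were chosen after their values were seen and by Erbb4 among others, the adjusted p was 1.00 for Sox2ot and Chst9 and 1.44e-05 for Pbld1. Without WT replicate 1 the adjusted p of Pbld1 was 0.453.

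Disc1 itself was scarce in the members. It was at 5.88 and 13.8 CPM in DISC1-N members and 14.4 and 8.67 CPM in WT members, from 4, 10, 12 and 5 UMIs, and the groups overlapped. It was too low for the fit within the members. In other Slc17a7 nuclei it was at 15.1 and 13.4 CPM in DISC1-N and 11.7 and 10.4 CPM in WT. Wfs1, the endoplasmic reticulum gene in the title of the series, was at 20.6 and 12.4 CPM in DISC1-N members and 22.9 and 13.9 CPM in WT members (log2 fold change -0.19 ± 0.49 SE, edgeR adjusted p = 1.00).

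Rfx3, the marker outside the choice, did not pass between genotypes in the members, with a log2 fold change of 0.06 ± 0.28 (SE, edgeR adjusted p = 1.00). The genes of the choice were not compared, since each library's members were chosen by their counts. The median log2 fold change over all 8421 genes was -0.00070 without the block, and 4218 of them (50.1%) lay below 0. The counts below 0 in the lists that follow stand beside this share.

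Among the inhibitory markers, 8 of 9 tested had a log2 fold change below 0, with a median of -0.76 without and -0.82 with the block. None passed without the block and 1 passed with it, Erbb4, and the sums of the list given above show that DISC1-N replicate 2 alone was low. Erbb4 is also in the list of Disc1 and its partners, and was the 1 call with the block in the lists by cell function. All 9 mitochondrially encoded genes tested had a log2 fold change below 0, with a median of -0.84 without and -0.69 with the block, and none passed. mt-Co1, a subunit of cytochrome oxidase, was at 101 and 24.8 CPM in DISC1-N members and 195 and 27.7 CPM in WT members, and mt-Atp6, a subunit of ATP synthase, at 125 and 42.8 CPM in DISC1-N and 259 and 24.3 CPM in WT members. In replicate 2 mt-Atp6 was thus higher in DISC1-N. Without WT replicate 1 the median of the list was 1.46, in a fit with no block. That fit set DISC1-N replicates 1 and 2, with mitochondrial sums of 702 and 240 CPM, against WT replicate 2 alone, with 199 CPM. It therefore mixes genotype with replicate number. Other Slc17a7 nuclei had mitochondrial sums of 1090 and 261 CPM in DISC1-N and 1669 and 441 CPM in WT.

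Of 67 nuclear genes of oxidative phosphorylation, 43 lay below 0 and the median was -0.09 (with the block -0.06), and of 76 ribosomal protein genes 45 lay below 0, with a median of -0.07 (with the block -0.03). Ndufa5, a subunit of complex I, was at 30.9 and 13.8 CPM in DISC1-N members and 54.2 and 31.2 CPM in WT members and did not pass. The 18 genes of the endoplasmic reticulum stress response, the 13 heat shock genes, the 11 immediate early genes and the 26 genes of Disc1 and its partners had medians of -0.06, -0.02, -0.09 and -0.05. Fez1, a Disc1-binding protein, was at 77.9 and 73.1 CPM in DISC1-N members and 114 and 88.4 CPM in WT members, without overlap, and did not pass (log2 fold change -0.43 ± 0.26 SE, edgeR adjusted p = 1.00).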

How the data were processed

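UMI counts per gene and barcode were deposited by the authors, not normalized, for 4 libraries of nuclei made with the 10x 3' v3 kit, per the labels' protocols. The submitters' processing notes name Cell Ranger 7.0.0 and mm10, while the file headers give 7.0.0 or 6.0.2. Whether intronic reads or strand were used, and how nuclei were called, is not given in the sources used here.

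Counts of the members were summed per library, and CPM were computed from these sums. edgeR 4.0.16 (quasi-likelihood, TMM, filterByExpr minimum count 10, Benjamini-Hochberg) in R 4.3.3 tested DISC1-N against WT, first with no block and then blocked by replicate number, and a joint fit tested the difference from other Slc17a7 nuclei. DESeq2 1.42.0 was run beside it. Replicate numbers coincide with the Cell Ranger version. The replicate 1 minus 2 differences of the genotypes correlated at r = 0.332 over 6698 genes, which are not independent replicates. The chi-square per degree of freedom was 1.78 and 1.60 for pairs of the same number, and 3.09 to 4.27 for the other pairs.

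Slc17a7 nuclei of each library were clustered without the 14 genes of the choice (scanpy 1.11.5, leidenalg 0.10.2, 2000 variable genes, 30 components, 15 neighbours, resolution 1.0). Doublets were removed only as an alternative (highest Scrublet scores, 0.8% per 1000 nuclei). Fits were tested on simulated data. Genes were placed by Ensembl ID in GENCODE vM21 (mm10). The IDs matched for 32235 of 32285 genes.

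The members, the gene lists and the rules were chosen with earlier results of these data known. Named genes are the markers and genes of the choice, Disc1 and Wfs1, the 20 highest and 10 lowest log2 ratios of genes with at least 50 CPM (pseudocount 1 CPM) in the same direction in all 4 libraries, up to 10 rises and 10 falls per genotype fit (adjusted p under 0.05, at least 20 CPM, the same direction in both replicate numbers) or else the 3 of lowest p, and up to 4 genes per list. For the log2 ratios and the genotype fits alike, the rule passes over sex-linked genes, genes of ribosomal proteins or mitochondria, and models with Gm or Rik names. Some genes that the rule names are not reported here.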

Additional observations from a re-analysis of the deposited data

Results flagged for a closer look

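For the genes given here, the genotype difference in the members differed from that in other Slc17a7 nuclei in the joint edgeR fit (adjusted p under 0.05). The differences, in log2 units, were -2.09 for Pbld1, -1.25 for Sox2ot, -1.16 for Chst9 and -0.88 for Erbb4. They were 1.88 for Gm32036 and 12.28 for Spag16. The value for Spag16 is a fitted one against WT libraries at 0 UMIs and is no bound, and 95 of its 99 UMIs came from 1 nucleus. Of 11 alternatives, Pbld1 passed in 10 (all but the one without WT replicate 1), Spag16 in 9, Sox2ot and Erbb4 in 7 each, Gm32036 in 5 and Chst9 in 4. The direction turned in 1 alternative each for Sox2ot, Erbb4 and Chst9 and in 2 for Gm32036.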

How the results depend on the processing

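Genes called between DISC1-N and WT in the members numbered 0 without the replicate block, 10 with no filter on low counts and 2 with at least 6 marker UMIs. With the replicate block they numbered 9, and the block with DESeq2 size factors gave 10, with no filter 1, with a mean of at least 20 CPM 13, with at least 6 marker UMIs 3, with at least 1000 genes 10, without doublets 17 and under 1% mitochondrial UMIs 6. The block without the 45 members gave 10 and in the top cluster 5. With the block, sums thinned to equal depth and DESeq2 each gave 0. The fits that left out 1 library, for all genes and for the functional lists, had no block. Each left 1 library in a genotype and so mixes genotype with replicate number. No genotype effect is read from their counts. Leaving out 1 library gave 0 to 16: DISC1-N replicate 1 left out gave 16 and replicate 2 gave 7, while WT replicate 1 left out gave 0 and replicate 2 gave 6. Genes called in the functional lists numbered 0, or 1 with the block alone, with at least 6 marker UMIs, and with the block plus DESeq2 size factors, 20 CPM, 6 marker UMIs, 1000 genes or no doublets, and 0 to 6 when a library was left out (6 for DISC1-N replicate 1, 4 for WT replicate 2).

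The difference between populations was called for 7 genes, for 11 with at least 6 marker UMIs, 12 without doublets, 11 without the 45 members, and 3 to 15 when a library was left out (15 for DISC1-N replicate 1, 3 for WT replicate 1, 4 for WT replicate 2). The share of members differed by 0.356 percentage points (DISC1-N minus WT), by -0.352 with at least 6 marker UMIs, and by -0.00955 to 0.721 when a library was left out, the lowest without DISC1-N replicate 2 and the highest without DISC1-N replicate 1. Genes 2-fold apart from other Slc17a7 nuclei numbered 271, and 459 in the top cluster. Slc1a3, a gene of the choice, turned to a log2 ratio of 0.89 between nuclei of at least 5000 UMIs under the same limits. In the top cluster, log2 fold changes turned to 0.30 for Chst9 and 0.84 for Erbb4 without and 0.27 and 0.87 with the replicate block, and population differences to 0.35 for Chst9, 0.84 for Erbb4 and 2.06 for Sox2ot. The population difference turned to -8.23 for Gm32036 with at least 6 marker UMIs, and the value of Gm32036 ran between -0.0638 without DISC1-N replicate 2 and 2.76 without DISC1-N replicate 1 when a library was left out. The cause of these changes was not tested. Here too, leaving out 1 library left the genotypes unbalanced in replicate number. Alternatives on the 45 members and on the top cluster were chosen after seeing the data. Top clusters were not matched between libraries, so top-cluster values may compare different nuclei. In DISC1-N replicate 1 Erbb4 was at 180 CPM in the top-cluster members and at 40.8 CPM in those of the next cluster.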
